A study of Mus musculus with 16 samples.

Results

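The interaction of mitotane and 9-cis retinoic acid (9-cisRA) is the part of the combined effect that the sum of the single effects does not account for. It was read for every transcript as combined minus mitotane minus 9-cisRA plus control, on the log2 scale. A positive term means that the combined tumours lay above the level that adding both single effects would give, and a negative term that they lay below it. On a log2 scale, adding effects is the same as multiplying folds. All 16 arrays of the series enter this contrast, 4 in each of the 4 groups, and 20248 of the 29094 identifiers on the array passed the filter on dim probes and were tested.

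The tumours were H295R xenografts, a human adrenocortical carcinoma line that makes steroid hormones, carried by SCID mice, whose immune defect lets a human graft grow. The combined group received mitotane with 9-cisRA, the mitotane group and the 9-cisRA group received that agent alone, and the control group received corn oil. Dosing was by mouth for 28 days, the labels call the samples male, and the design text counts 43 mice, without saying which mice or pools the 16 arrays came from. Each of the 4 slides held 1 array of each group.

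Mitotane is an adrenolytic drug used against adrenocortical carcinoma that disturbs steroid synthesis in the adrenal cortex, and it activates the xenobiotic receptor PXR. 9-cisRA binds the retinoic acid receptors and the retinoid X receptors. Retinoid X receptors are the partners with which many other nuclear receptors, PXR among them, bind DNA. Whether one agent altered the response to the other is the question that the contrast addresses.

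The organism given in GEO is the mouse, but the scanner headers name a human genome build for the array, and H295R is human. The files do not pair identifiers with gene names, and 0 of the 29094 matched the mouse reference table that was at hand. Transcripts are therefore given by identifier, no gene list was measured, and the H295R label was not checked against adrenocortical or stromal markers.

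On the measures given here, 2 arrays of the fourth slide differed in quality from the others. Control replicate 4 had a 75th percentile of intensity of 224.2, against 551.5 to 1061 on the other 14 arrays with a scanner file. Its median Pearson r with the other arrays, across transcripts, was 0.876, against 0.975 to 0.99. Combined replicate 4 had 60.5% of spots well above background and control replicate 4 had 63.6%, against 71.5% to 77.4% on the remaining 13. The SD of the deposited log2 values over tested transcripts was 0.52 on combined replicate 4 and 1.34 on control replicate 4, and 0.23 to 0.40 on the other 14. The test, its counts, the terms and the arrangements of the groups are therefore given from all 16 arrays and without control replicate 4, and other values are from all 16 arrays unless stated.

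No transcript passed the test for an interaction. With limma and Benjamini-Hochberg adjustment over 20248 transcripts, 0 (0%) had an adjusted p under 0.05 from all 16 arrays, where the smallest adjusted p was 0.87. Without control replicate 4 the count was again 0 (0%), with a smallest adjusted p of 0.771. At an unadjusted p under 0.05 there were 751 transcripts (3.71%) from all 16 arrays, 221 (1.09%) with a positive and 530 (2.62%) with a negative term. With each array centred on its own median this split was 408 positive and 499 negative. Without control replicate 4 there were 1164 (5.75%), of which 486 (2.4%) were positive and 678 (3.35%) negative. If no transcript departed from additivity and all arrays had the same spread, 5% would be past this threshold on average. The share was below that level from all arrays and slightly above it without control replicate 4. The spread was not the same, with an SD of 1.34 on control replicate 4. The 5% level is therefore only a rough guide, most of all for the fit of all 16 arrays.

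**Figure D1:**
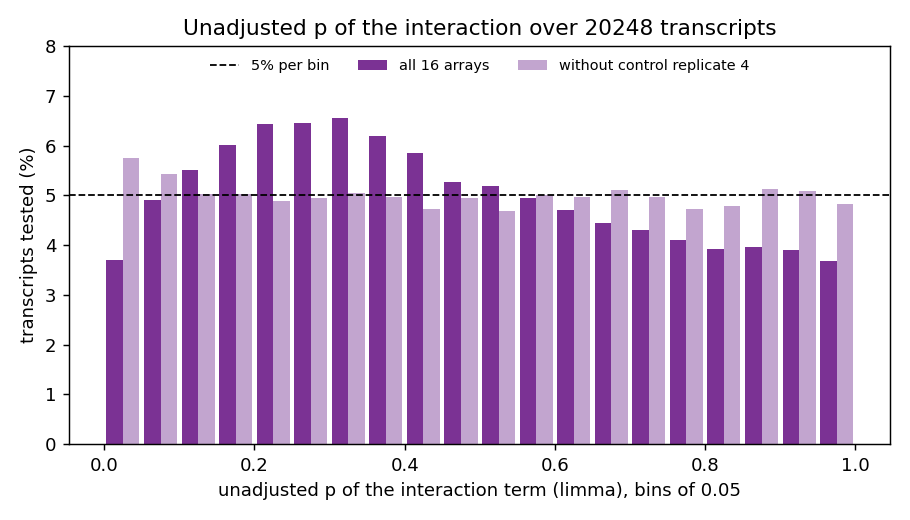
Share of the 20248 tested transcripts (y axis, percent) by unadjusted p of the interaction term in limma (x axis, bins of 0.05), from all 16 arrays (dark bars) and without control replicate 4 (light bars), with a dashed line at 5%. The lowest bin holds 3.71% of transcripts from all 16 arrays and 5.75% without control replicate 4, which is the tallest light bar; the dark bars are tallest between 0.2 and 0.4.

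From all 16 arrays the median term was -0.03 and 90% of transcripts lay between -0.60 and 0.79. Without control replicate 4 the median was 0.00 and the same span was -0.50 to 0.46. The median standard error was 0.31 from all 16 arrays and 0.22 without control replicate 4, which corresponds to a median half-width of the 95% interval of 0.65 and 0.48, or 1.57-fold and 1.39-fold. For 11395 transcripts (56.3%) the 95% interval of the term lay within a 2-fold departure in either direction, and without control replicate 4 this held for 15962 (78.8%). These intervals are for single transcripts and are not adjusted for their number. For the remaining transcripts the interval reached past a 2-fold departure.

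The fits with and without control replicate 4 shared part of these transcripts. Over all tested transcripts the term had the same sign in both for 14102 (69.6%). An unadjusted p under 0.05 with the same sign in both fits was found for 583 (2.88%), 168 (0.83%) positive and 415 (2.05%) negative. A further 168 had it with all 16 arrays only and 581 without control replicate 4 only. Array weights, which count each array by its fitted spread, gave 2474 transcripts at an unadjusted p under 0.05 and still 0 adjusted calls.

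The 4 transcripts described next are those that ranked highest in each direction by the larger of their unadjusted p values in both fits. All 4 had a probe well above background on each of the 15 arrays with a scanner file, and none passed the adjusted test. NR_026682 has 2 probes and its values average both, so for it the flag can rest on either probe. Values are deposited log2 values, which are centred on the probe's median over the 16 arrays, so they can be compared between groups and not between transcripts. The values chose these transcripts, so the arrangement of their groups, with any separation between groups, is a description. How many of all tested transcripts have a group set apart in this way was not counted.

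NM_006898 ranked first among positive terms. Its log2 values were 0.35, 0.57, 0.41 and 0.82 on the combined arrays of slides 1 to 4, -0.01, -0.12, -0.09 and -0.04 on the mitotane arrays, -0.13, 0.01, -0.15 and -0.12 on the 9-cisRA arrays, and 0.24, 0.02, 0.22 and -0.18 on the control arrays. Every combined array lay above every array of the other 3 groups, while mitotane and 9-cisRA overlapped with each other. Their overlap with control rested on control replicate 4, at -0.18, since the other 3 control arrays lay above every mitotane and every 9-cisRA array. The means were 0.54 ± 0.21 under combined treatment, -0.07 ± 0.05 under mitotane, -0.10 ± 0.07 under 9-cisRA and 0.07 ± 0.20 in control (SD, n = 4 each), where the control mean without replicate 4 was 0.16. The difference from control was -0.14 for mitotane, and -0.23 without control replicate 4. For 9-cisRA it was -0.17, and -0.26 without that array. Adding the single effects would put the combined mean at -0.24, or at -0.32 without control replicate 4. The interaction term was 0.78 ± 0.19 (SE), a 1.71-fold departure (adjusted p = 0.87, limma), and 0.86 ± 0.16 without control replicate 4 (adjusted p = 0.771, limma). Within the slides the term was 0.72, 0.71, 0.87 and 0.80. From scanner values with normexp correction and quantile normalisation, where the combined group has 3 arrays, the term was 0.43.

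NR_026682 was the second among positive terms and had another arrangement. Its log2 values were 0.10, 0.14, 0.25 and 0.62 on the combined arrays, 0.03, 0.27, 0.49 and -0.08 on the mitotane arrays, -0.90, -1.05, -0.87 and -1.31 on the 9-cisRA arrays, and 0.03, -0.42, 0.00 and 0.70 on the control arrays. Every 9-cisRA array lay below every other array, and the remaining groups overlapped. The means were 0.27 ± 0.24 under combined treatment, 0.18 ± 0.25 under mitotane, -1.03 ± 0.20 under 9-cisRA and 0.08 ± 0.46 in control (SD, n = 4 each), where the control mean without replicate 4 was -0.13. The combined mean of 0.27 stood against an additive level of -0.93, or -0.72 without control replicate 4. The difference from control was -1.11 for 9-cisRA alone, and -0.90 without control replicate 4. It was -0.35 with the brighter probe alone and -0.08 with normexp correction and quantile normalisation. For combined treatment it was 0.20, with 0.40 when control replicate 4 was left out and 0.03 when control replicate 2 was. For mitotane it was 0.10, and it changed sign between 0.31 without control replicate 4 and -0.06 without control replicate 2. The term was 1.20 ± 0.30 (SE; adjusted p = 0.87, limma), and 1.00 ± 0.24 without control replicate 4 (adjusted p = 0.771, limma). Within the slides it was 1.00, 0.50, 0.62 and 2.70, the highest on the slide of control replicate 4. With that slide left out the term was 0.71. This is a dim transcript, with 10.3% of those tested dimmer, and its 2 probes gave terms of 0.60 and 1.80. With the brighter probe alone the term was 0.60, and with normexp correction and quantile normalisation it was 0.17.

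NM_006263 ranked first among negative terms. Its log2 values were -0.47, -0.27, -0.32 and -0.43 on the combined arrays, 0.28, 0.23, 0.04 and 0.30 on the mitotane arrays, 0.14, 0.26, -0.06 and 0.21 on the 9-cisRA arrays, and -0.04, 0.05, -0.05 and -0.10 on the control arrays. Every combined array lay below every other array, whereas both single-agent groups overlapped with control. The means were -0.37 ± 0.10 under combined treatment, 0.21 ± 0.12 under mitotane, 0.14 ± 0.14 under 9-cisRA and -0.04 ± 0.06 in control (SD, n = 4 each), with a control mean of -0.01 without replicate 4. The single effects sum to a combined level of 0.39, or 0.36 without control replicate 4, on the other side of control from the level measured. The term was -0.76 ± 0.16 (SE), a 1.69-fold departure (adjusted p = 0.87, limma), and -0.74 ± 0.14 without control replicate 4 (adjusted p = 0.771, limma). It was negative on each slide, at -0.93, -0.71, -0.35 and -1.05. With quantile normalisation the term was -1.06, and with columns centred on their median it was -0.67. That centring took the difference from control from 0.25 to 0.13 for mitotane and from 0.17 to 0.08 for 9-cisRA. For combined treatment the difference went from -0.34 to -0.46.

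NM_001352 was the second among negative terms. Its log2 values were -0.09, -0.41, -0.07 and -0.02 on the combined arrays, 0.29, 0.37, 0.21 and -0.04 on the mitotane arrays, 0.31, 0.35, 0.51 and 0.06 on the 9-cisRA arrays, and -0.62, 0.02, -0.47 and -0.79 on the control arrays. The 9-cisRA arrays all lay above the combined and the control arrays. The mitotane arrays overlapped with combined through replicate 4 and with control through control replicate 2. The means were -0.15 ± 0.18 under combined treatment, 0.21 ± 0.18 under mitotane, 0.31 ± 0.19 under 9-cisRA and -0.47 ± 0.35 in control (SD, n = 4 each), where the control mean without replicate 4 was -0.36. The combined mean of -0.15 stood against an additive level of 0.98, or 0.87 without control replicate 4. The difference from control was 0.32 for both agents together, 0.67 for mitotane and 0.77 for 9-cisRA, and the single differences sum to 1.45. With array weights these 3 differences were -0.06, 0.31 and 0.32, so the combined one turned its sign. The combined difference was 0.05 with quantile normalisation, 0.21 without control replicate 4 and 0.48 without control replicate 2. The term was -1.13 ± 0.25 (SE), a 2.19-fold departure (adjusted p = 0.87, limma), and -1.02 ± 0.22 without control replicate 4 (adjusted p = 0.771, limma). Within the slides it was -1.31, -1.11, -1.26 and -0.83, and with array weights it was -0.69.

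**Figure D2:**
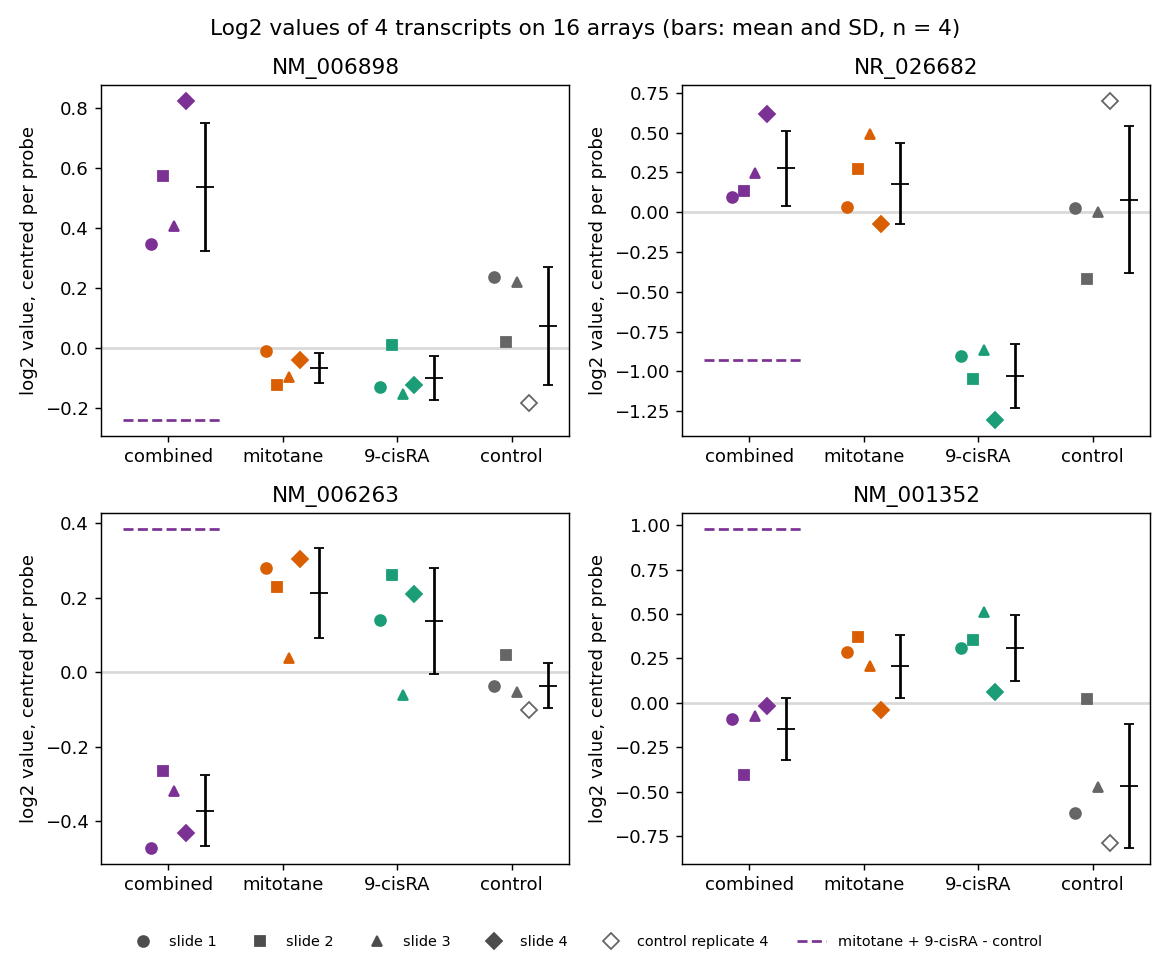
Deposited log2 values (y axis, centred on each probe's median) of the 4 transcripts on the combined, mitotane, 9-cisRA and control arrays, with marker shapes for the slides, an open marker for control replicate 4, bars for the mean and SD of 4 arrays, and a dashed line at the additive level for the combined group from all 16 arrays. The combined arrays of NM_006898 and NR_026682 all lie above the dashed line, and those of NM_006263 and NM_001352 all lie below it.

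Among the 583 transcripts with an unadjusted p under 0.05 in both fits, the arrangement of the group means was counted as a description, since the contrast itself chose them. The same arrangements were not counted over all tested transcripts, so these shares have no background beside them and cannot be called particular to the 583. Over all tested transcripts, control replicate 4 deviated from the mean of the other control arrays by a median of -0.33, which lowers the control mean. Of the 415 with a negative term, 391 (94.2%) had both single-agent means above control and 403 (97.1%) had the combined mean below both single agents. The combined mean lay nearer to control than either single agent did in 304 of them (73.3%), further from it than either in 61 (14.7%), and on the other side of control from both in 204 (49.2%), where the last count overlaps with the others. With the control mean taken without replicate 4, these were 165 (39.8%), 171 (41.2%) and 254 (61.2%), and 338 (81.4%) had both single-agent means above control, so the first count rested on that array. NM_001352 belongs to the 304 and NM_006263 to the 204. Of the 168 with a positive term, 112 (66.7%) had both single-agent means below control, and 164 (97.6%) had the combined mean above both single agents. The combined mean was nearer to control than either in 64 (38.1%), further in 71 (42.3%) and on the other side in 63 (37.5%), and without control replicate 4 in 48 (28.6%), 82 (48.8%) and 75 (44.6%). The median term was 0.70 among the positive and -0.70 among the negative. A probe well above background on every scanner array was found for 70.8% and 78.3% of them, against 78% of all tested.

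The slide is a labelled batch with 1 array of each group, so the contrast can be formed 4 times. The median term over transcripts was 0.00 on slide 1, -0.03 on slide 2, -0.02 on slide 3 and -0.22 on slide 4. The SD over transcripts was 0.46, 0.72, 0.58 and 1.56, so slide 4 had the broadest distribution. A term over 1 in size was seen for 739 transcripts (3.65%) on slide 1, 2304 (11.4%) on slide 2, 1435 (7.09%) on slide 3 and 8797 (43.4%) on slide 4. The sign was the same on all 4 slides for 2709 transcripts (13.4%), positive for 982 (4.85%) and negative for 1727 (8.53%). Independent signs, equally likely in either direction, would be the same on 4 slides for 12.5%. On the first 3 slides alone it was the same for 5318 (26.3%), of which 2456 were positive and 2862 negative, where such signs would give 25%. With 4 slides no sign test of a single transcript can fall under 0.05, so none was made. With the slide as a block in limma the counts at an unadjusted p under 0.05 were 877, and 1412 without control replicate 4, each with 0 adjusted calls.

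**Figure D3:**
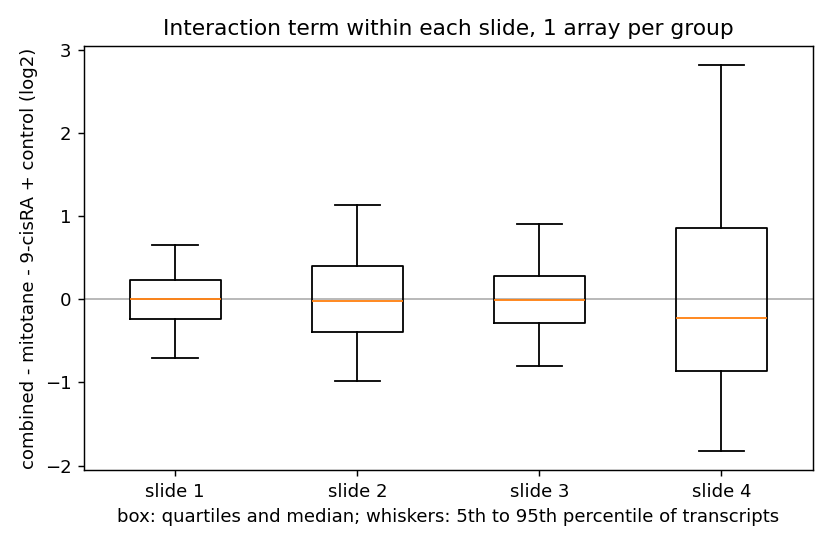
Interaction term (y axis, log2) formed within each of the 4 slides from 1 array per group, over 20248 transcripts; boxes give the quartiles and the median, whiskers the 5th to 95th percentile. The quartiles are -0.24 and 0.23 on slide 1, -0.39 and 0.40 on slide 2, -0.28 and 0.28 on slide 3 and -0.87 and 0.86 on slide 4.

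The kind of accession was the only annotation by which transcripts could be grouped. Among 15328 RefSeq mRNAs, 115 had a positive and 454 a negative term at an unadjusted p under 0.05, and 0 were called after adjustment. Without control replicate 4 these were 290 and 571. The 1044 RefSeq non-coding RNAs had 23 positive and 12 negative terms, and 50 and 18 without control replicate 4. The 1342 Ensembl transcripts had 30 positive and 15 negative terms, or 50 and 22 without that array. The 2272 other accessions had 45 and 44, or 88 and 59 without it. The 262 predicted RefSeq transcripts had 8 and 5, or 8 and 8 without it. Counted in both directions, the share was 3.71% (5.62% without control replicate 4) for RefSeq mRNAs, 3.35% (6.51%) for RefSeq non-coding RNAs and 3.35% (5.37%) for Ensembl transcripts, against 3.71% (5.75%) of all tested. The difference between the kinds was not tested. The median term was -0.08 for RefSeq mRNAs, 0.10 for RefSeq non-coding RNAs and 0.16 for Ensembl transcripts, and without control replicate 4 it was -0.01, 0.07 and 0.06. Control replicate 4, which enters the contrast with a positive sign, deviated from the mean of the other 3 control arrays by a median of -0.46 for RefSeq mRNAs, -0.16 for RefSeq non-coding RNAs and 0.12 for Ensembl transcripts. For other accessions the share was 3.92% (6.47% without control replicate 4), the median term 0.19 (0.03) and this deviation 0.40. Predicted RefSeq transcripts had 4.96% (6.11%), 0.12 (0.03) and 0.30.

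**Figure D4:**
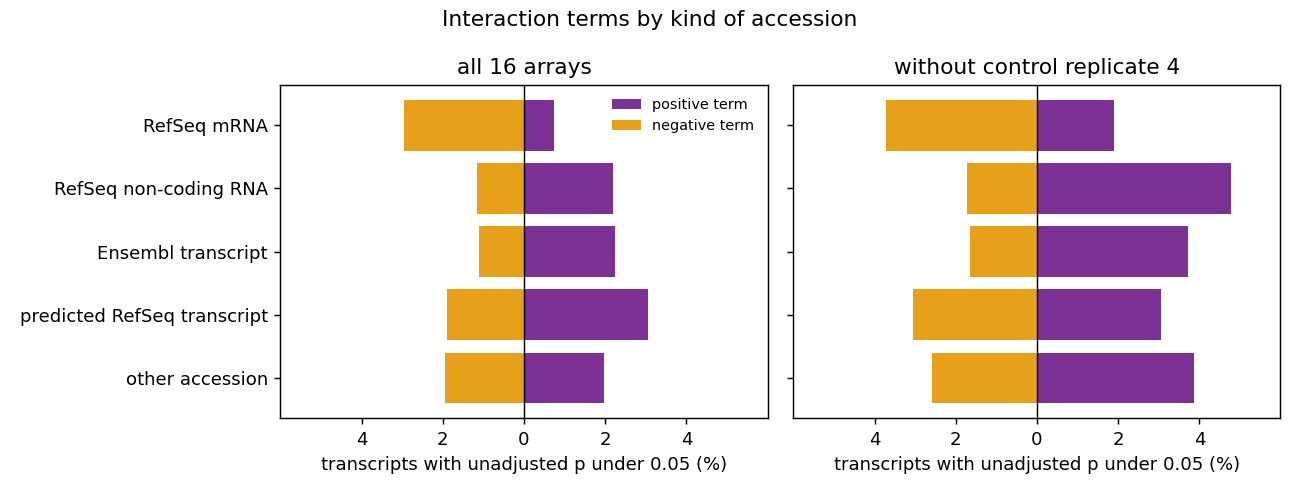
Share of the tested transcripts of each kind of accession (x axis, percent) with an unadjusted p under 0.05 and a positive (right) or negative (left) interaction term, from all 16 arrays and without control replicate 4. RefSeq mRNAs have 0.75% positive and 2.96% negative terms from all 16 arrays, and 1.89% and 3.73% without control replicate 4.

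The split by sign also differed with signal level, a difference that was not tested. Among the brightest 25% of transcripts 29 terms were positive and 107 negative at an unadjusted p under 0.05, and among the dimmest 25% 94 were positive and 121 negative. Without control replicate 4 the counts were 97 and 146 among the brightest and 122 and 148 among the dimmest. In both directions together, the share was 2.69% (4.80% without control replicate 4) among the brightest and 4.25% (5.33%) among the dimmest. Of all tested transcripts it was 3.71% (5.75%). The median standard error was 0.26 among the brightest and 0.46 among the dimmest, so the terms of dim transcripts had the larger error. The part of signal level and of array quality in these counts was not tested.

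Several probes of an identifier give separate readings on the same arrays. Of 3755 tested identifiers with several probes, 2210 (58.9%) had terms of one sign from all of their probes. Among the 68 that also had an unadjusted p under 0.05 in both fits, 66 (97.1%) did, where the average over the probes had chosen them. The 10 spike-in probes, which read RNA added during labelling and no tumour transcript, gave a contrast of 0.69 from all 16 arrays and 0.14 without control replicate 4, without a test. Their mean log2 value was 1.79 on control replicate 4, whereas the remaining 15 arrays spanned -0.92 to 0.41. In the scanner signal, before scaling between arrays, control replicate 4 was not high, at 9.95 against 9.10 to 10.27 on the other arrays. Its 75th percentile of intensity was low, at 224.2, so the high deposited value reflects the scaling of a dim array. Every slide carried its 9-cisRA array at position 4, so the effect of position cannot be told apart from that of 9-cisRA in the contrast. Control arrays were at position 3 on slides 1 to 3 and at position 2 on slide 4, so control was nearly tied to position too. Without control replicate 4, every control array was at position 3.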

How the data were processed

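Tumour RNA was read on 1-colour (Cy3) Agilent arrays. The scanner files hold intensity values, background-subtracted and detrended within each array by the authors' Feature Extraction software, version 11.0.1.1 per the file headers and 11.0.1 per the submitters' processing notes. The authors' series value table holds deposited log2 values. The sources used here do not state how it was made. Every probe's median over the 16 columns is 0, so the table is centred on it, and differences between arrays matched the log2 scanner signal. The percentile to which arrays were scaled stays unknown. Over tested transcripts the column median was -0.34 for control replicate 4 and -0.03 to 0.05 for the others.

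Of 34183 probes, 34127 had an identifier in the scanner files. Probes were averaged per identifier. A transcript entered the test if any of its probes was well above background on all scanner arrays of some group. Combined replicate 3 entered through the value table only. The contrast was fitted to all 4 groups with limma 3.58.1 (R 4.3.3; lmFit, eBayes), with two-sided p-values adjusted by Benjamini-Hochberg and held to 0.05. The fit was tested on simulated data. The normexp alternative used the median spot signal, since no mean signal was at hand. Plots were drawn with matplotlib 3.10.9.

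Members, lists and alternatives were chosen with earlier results of these data known. The rule named the transcripts with the smallest larger p of both fits, with gene symbols where a table gave them. None did, so the 2 identifiers per direction are given. The 29 gene lists, 473 symbols, matched 0 identifiers. No label ties an array to a mouse of its own, so the p-values rest on the spread between samples, which may in part be technical. Replicate numbers are the labelled slides. Deviations from the group means correlated with a median r of 0.03 between arrays of one slide (24 pairs, -0.30 to 0.35) and -0.04 between slides.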

Additional observations from a re-analysis of the deposited data

Results flagged for a closer look

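Sets of 4 arrays were examined in all 4 groups, 39 in total, and 5 were marked. In each of these 5, control replicate 4 lay far from the other 3 control arrays. Chance marks about 5 in 100 independent sets, whereas these 5 all measure control replicate 4. Its median r with the other arrays was 0.876 (other controls 0.988 to 0.99), it had 511 outlier spots (281 to 313), and the log2 ratio of its spike-in signal to the 75th percentile was 2.14 (-0.32 to 0.07). In the deposited table its median over tested transcripts was -0.34 (-0.02 in each of the others) and its SD was 1.34 (0.27 to 0.31). The values of the 4 named transcripts marked no array. The scanner measures of the combined group cover 3 arrays and were not examined in this way. High counts of outlier spots were not limited to control replicate 4, since combined replicate 4 had 589 and mitotane replicate 4 had 445. The remaining arrays with a scanner file had at most 340.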

How the results depend on the processing

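No transcript passed an adjusted p of 0.05 for the interaction under any of the 30 alternatives to the fit of all 16 arrays or the 26 to the fit without control replicate 4. The terms of the 4 named transcripts kept their sign in all 30, with adjusted p from 0.0919 to 0.963 (limma). These transcripts were chosen for a small p and the same sign in both fits, so their kept signs are no separate support. What moved were the counts at an unadjusted p under 0.05 (751, with 221 positive and 530 negative terms). Leaving out 1 array in turn gave 498 (without mitotane replicate 2) to 1195 (without control replicate 1), with 143 to 486 positive and 347 to 836 negative terms, and 1164 without control replicate 4. Array weights gave 2474, or 12.2% (1224 positive, 1250 negative), where control replicate 2 was weighted 8.60 and control replicate 4 only 0.04. Without the fourth slide there were 1243, of which 530 positive. The replicate block, which is the slide, gave 877 with all arrays and, without control replicate 4, 1412 (519 positive, 893 negative); it changed no call. Positive terms numbered 408 of 907 with columns centred on their medians, which moves the median term by under 0.1, 417 of 875 with no filter on dim probes, and 453 of 1020 without control replicate 4 and combined replicate 4, an alternative added after seeing the data. The share of positive terms thus lay between 23.4% with normexp and 49.5% with array weights, so the excess of negative terms depends on the processing. Starting from 1164 without control replicate 4 (486 positive, 678 negative), leaving out a further array gave 860 to 1462, with 386 to 756 positive and 472 to 876 negative terms. Without 9-cisRA replicate 1 there were 756 positive and 569 negative, the other way round. Array weights gave 2530, or 12.5% (1225 positive, 1305 negative). The causes were not tested. The number of transcripts with 1 sign on all 4 slides, 2709, was 2210 to 3241 over its 6 alternatives.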
